A study of Mus musculus with 48 samples.

Results

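The comparison described here set Tregs of mice given the 3x mutein of IL-2 against Tregs of mice given the H16R mutein, both with isotype control antibody, and used the 4 libraries of each group, 8 of the 48 libraries in the series, chosen by their treatment labels. WT IL-2, H16R and 3x were human IL-2 fused to a human IgG1 Fc without effector function. H16R carries 1 substitution, and 3x carries D20A, V91K and M104V, each counted from the first residue of human IL-2. Female C57BL/6 mice, 8-12 weeks of age, received 25 µg of mutein under the skin once on day 0 and 2 doses of 500 µg of isotype antibody into the peritoneum on day −1 and day 0. Spleens were taken on day 4, so dose and time were matched between the muteins. Tregs were the fraction that bound in a magnetic selection for CD25 among CD4 T cells, 1 library per mouse. For values set beside the comparison, 4 libraries of isotype mice given PBS and 4 of those given WT IL-2 (2 of the latter carry the same mouse label), 4 mice of each mutein given an antibody that blocks MHC class II, and CD25- CD4 T cells (Tcons) of 2 mice of each isotype mutein group were used. Treg libraries of mice given the blocking antibody with PBS or WT IL-2 were also fitted, and their values are not given. Both groups carry a human cytokine acting on mouse receptors, and RNA of a selected cell fraction was read in bulk, so that fewer cells of a kind and less RNA per cell cannot be told apart.

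IL-2 binds a receptor made of IL-2Rα (CD25), IL-2Rβ and the common γ chain, and the kinases JAK1 and JAK3 on the latter chains phosphorylate STAT5. STAT5 enters the nucleus and switches on feedback inhibitors such as Cish, survival genes such as Bcl2, D-type cyclins and the gene for CD25 itself. Tregs depend on this pathway because they make little IL-2 of their own, and in the spleen it controls how many Tregs there are and how strongly they divide and suppress.

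Each of the 8 libraries held Foxp3, and each also held transcripts of other cells. Foxp3, the transcription factor that defines Tregs, was at 1109, 1165, 1232 and 1120.3 CPM (counts scaled to a common library total with TMM) in H16R replicates 1 to 4 and at 1132, 1106, 1158 and 1136 CPM in 3x replicates 1 to 4. Over the 8 libraries the CD8 genes Cd8a and Cd8b1 were at 0.246 to 0.961 and 8.54 to 11.5 CPM, and the B cell genes Ms4a1 and Cd79b at 1.75 to 3.13 and 15.4 to 17.7 CPM. Ighm, the constant gene of the antibody heavy chain μ, was at 2781 to 4254 CPM with H16R and 1305 to 2060.4 CPM with 3x. Total expected counts were 32.9 to 48.7 M with H16R (median 41.5 M) and 38.2 to 49.9 M with 3x (median 48.3 M). On the first principal component, which held 35.1% of the variance, the H16R libraries lay between −20.8 and −4.39 and the 3x libraries between 8.41 and 20.3. The second component held 16.9%, and H16R replicate 3 stood apart on it at 25.1.

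Of 12392 protein-coding genes tested, 1429 (11.5%) passed an adjusted p of 0.1 in the quasi-likelihood test of edgeR and are called DEGs here. With 3x, 714 genes (5.76%) were higher and 715 (5.77%) were lower, and the median log2 fold change of all genes was 0.00. Most differences were small. The median size among DEGs was 0.26 on the log2 scale, and 100 DEGs changed by 1 or more, 15 of them higher and 85 lower with 3x. The 4 libraries of one group lay wholly above the 4 of the other for 2230 genes (18.0%), with 3x above for 8.51% and below for 9.48%. The number of DEGs rests on single mice: it was 591 without 3x replicate 1, 789 without H16R replicate 4 and 791 without 3x replicate 4. The test estimated the spread over 8 Treg groups, and when only the 8 libraries were fitted, 1079 of 11601 genes were higher and 1179 lower. Later counts from the fit of the 8 libraries are to be read beside these totals.

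**Figure D1:**
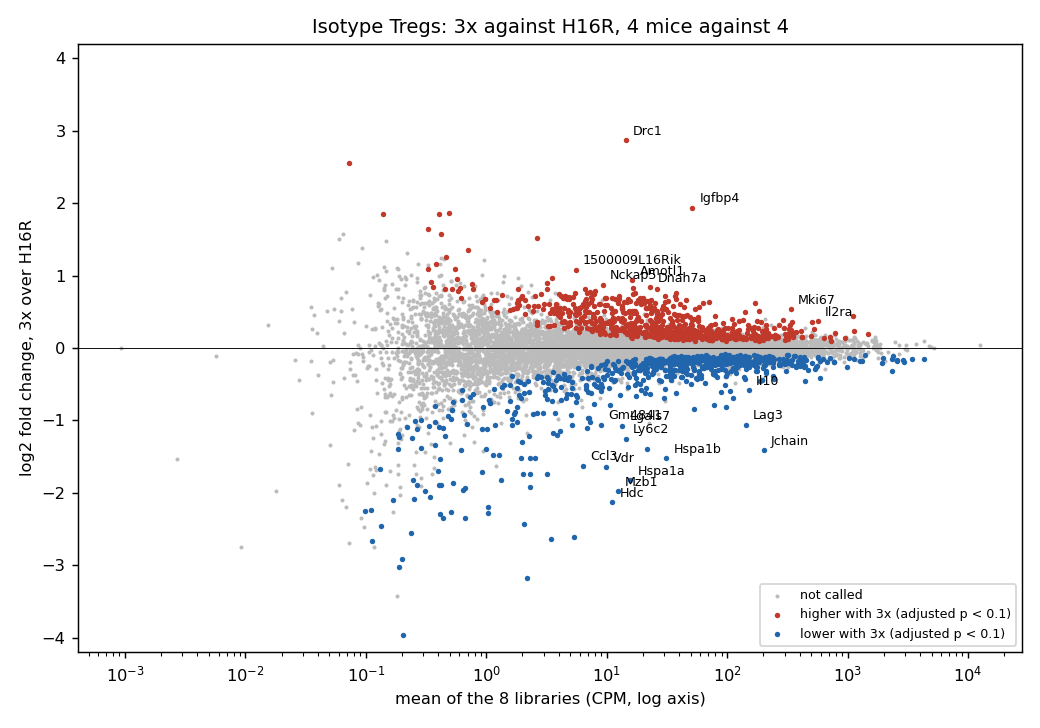
Log2 fold change of 3x over H16R in isotype Tregs (vertical axis) against the mean CPM of the 8 libraries (horizontal axis, log scale) for each of the 12392 genes tested. Red points are the 714 genes higher and blue points the 715 genes lower with 3x, and Drc1 and Igfbp4 stand highest among the named genes, and more of the large changes lie below 0 than above it.

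The clearest pattern was in the cell cycle. Of 66 tested genes of mitosis and the G2/M phase, 59 were higher with 3x, none was lower, and the median log2 fold change was 0.55. Their summed level was 3373, 3256, 3327 and 2906 CPM in the H16R libraries and 4599, 3536, 3729 and 4125 CPM in the 3x libraries, with no overlap. It was 2131 to 2296 CPM with PBS and 2489.9 to 3302 CPM with WT IL-2. Among the 3x libraries, replicate 1 was highest and replicate 2 lowest. Without 3x replicate 1, 28 of the 66 genes were called. No gene of this list was lower at an unadjusted p under 0.05, or by DESeq2 or limma, and the same held for the lists of DNA replication, cyclins and sterol synthesis, and in the other direction for the interferon-stimulated genes.

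Promoters of mitotic genes often carry CCAAT boxes, which bind NF-Y, and a cell cycle homology region, TTTGAA, bound by the DREAM and MuvB complexes. The start regions of Ccnb2 and Cdc20, which rose with 3x, are shown because they hold both, and capitals mark TTTGAA and CCAAT on the printed strand. Both are RefSeq sequences of GRCm38.p6 and end within 30 bases after the transcript start. The Ccnb2 stretch is chr9:70421525-70421766 and the Cdc20 stretch is chr4:118437314-118437441, each on the minus strand.
Ccnb2: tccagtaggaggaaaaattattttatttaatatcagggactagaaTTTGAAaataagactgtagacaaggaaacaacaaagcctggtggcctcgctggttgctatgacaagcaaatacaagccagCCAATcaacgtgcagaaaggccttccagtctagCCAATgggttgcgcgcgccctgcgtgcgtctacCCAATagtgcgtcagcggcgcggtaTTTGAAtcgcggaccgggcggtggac
Cdc20: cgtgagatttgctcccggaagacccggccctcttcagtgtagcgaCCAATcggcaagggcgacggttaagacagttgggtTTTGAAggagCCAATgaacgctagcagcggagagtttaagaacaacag
In windows from 250 bases before to 50 after the start, TTTGAA or its reverse TTCAAA was found in 40 of 55 listed mitosis genes with a window (72.7%) and in 14.6% of 9764 tested genes with one. CCAAT or its reverse ATTGG was also found in 40 of the 55 (72.7%), against 42.9% of the tested genes. Among the 50 called mitosis genes with a window, 37 held TTTGAA. These letters describe the windows and not bound sites.

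Ccnb2 encodes cyclin B2, which drives entry into mitosis. Its level was 26.5, 24.2, 25.0 and 15.9 CPM with H16R and 49.2, 28.0, 33.3 and 40.0 CPM with 3x, and it rose by 0.72 ± 0.17 (log2 fold change ± SE, adjusted p = 0.0106). Each 3x library was above each H16R library. Cdc20 activates the ligase that ends metaphase. It was at 21.8, 20.4, 21.6 and 15.4 CPM with H16R and 38.3, 25.5, 28.1 and 30.1 CPM with 3x, a log2 fold change of 0.62 ± 0.14 (adjusted p = 0.00841). H16R replicate 4 was the lowest library for both genes.

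Mki67, which encodes the proliferation marker Ki-67, was at 303, 284, 280.4 and 231 CPM with H16R and 505, 328, 343 and 418 CPM with 3x. It rose by 0.54 ± 0.13 (adjusted p = 0.0135), and missed the threshold without 3x replicate 1 (adjusted p = 0.104). PBS mice were at 144 ± 13.7 CPM (mean ± SD, n = 4) and WT IL-2 mice at 243 ± 47.8 CPM. Top2a, the topoisomerase that untangles replicated DNA, rose by 0.51 ± 0.11 (adjusted p = 0.0063), Cenpe, a kinetochore motor, by 0.72 ± 0.13 (adjusted p = 0.00106), and Kif11, the motor that separates spindle poles, by 0.62 ± 0.12 (adjusted p = 0.00229). Among the 15 largest rises named by rule (DEGs with a mean above 5 CPM and no overlap between groups), Aspm, a spindle pole protein, Cenpf and Knl1, kinetochore proteins, E2f7, a repressor of cell cycle genes, Neil3, a DNA glycosylase, Depdc1b, Parpbp and Arhgap33 had log2 fold changes of 0.75 (Cenpf, Knl1) to 0.81 (Aspm, Depdc1b).

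Of 54 tested genes of DNA replication, 18 were higher with 3x and none was lower, with a median of 0.22. The count was 3 without 3x replicate 1, 8 without H16R replicate 4 and 9 without 3x replicate 4. Rrm2, a subunit of the enzyme that makes deoxynucleotides, was at 47.3, 45.8, 47.6 and 35.0 CPM with H16R and 80.9, 51.4, 55.0 and 66.9 CPM with 3x, a rise of 0.53 ± 0.14 (adjusted p = 0.0164, and 0.117 without 3x replicate 1). Uhrf1, which maintains DNA methylation at the fork, rose by 0.44 ± 0.11 (adjusted p = 0.017, and 0.133 without 3x replicate 1). Among 22 cyclins, CDKs and CDK inhibitors, 5 were higher and none lower. They include Ccnd2, cyclin D2, at 307, 285, 299.7 and 298 CPM with H16R and 433, 333, 352 and 359.6 CPM with 3x (0.31 ± 0.07, adjusted p = 0.00461), and its partner kinase Cdk6 (0.39 ± 0.12, adjusted p = 0.0384, and 0.209 without 3x replicate 1). Without 3x replicate 1 this list had 2 calls, and without 3x replicate 4 it had 3.

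**Figure D2:**
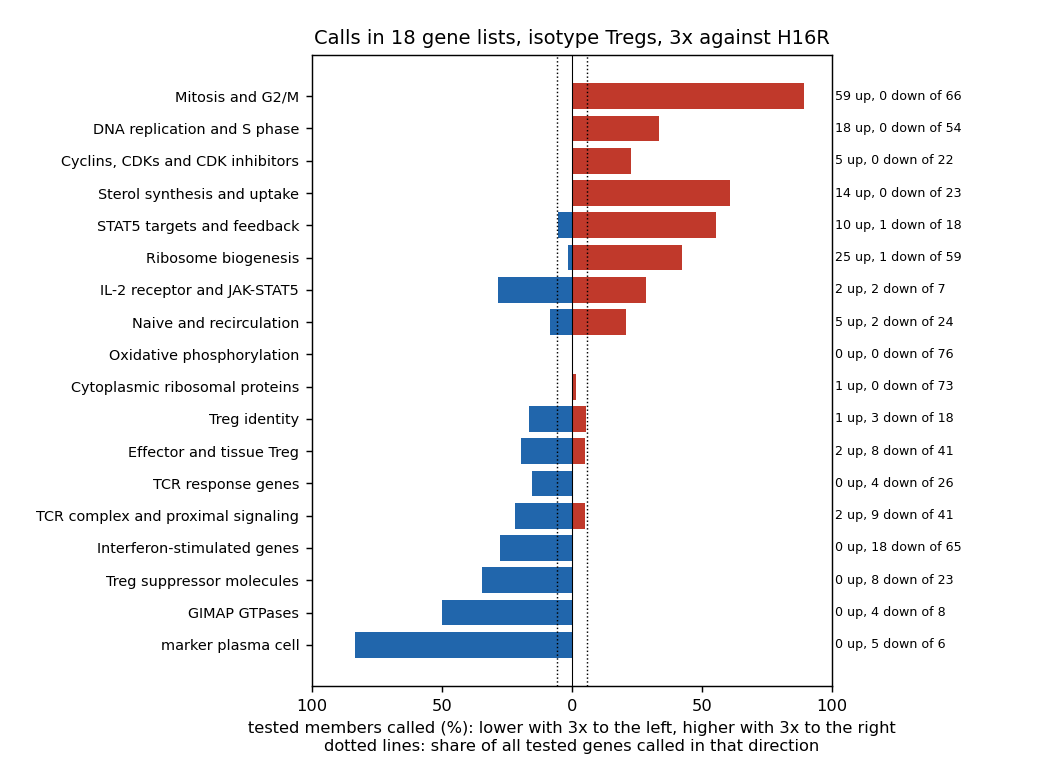
Share of tested members called in each of 18 gene lists, with genes higher with 3x to the right and genes lower with 3x to the left, in percent, and the counts stand beside each bar. Dotted lines mark the share of all tested genes called in each direction, 5.76% higher and 5.77% lower; the mitosis list reaches furthest to the right and the plasma cell marker list furthest to the left.

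The IL-2 receptor and its signaling genes moved in both directions. Of 7 tested, 2 were higher and 2 lower with 3x, with 0 higher and 1 lower without 3x replicate 1 and 1 lower without any of H16R replicates 3 and 4 and 3x replicates 2 and 4. Il2ra, which encodes CD25, the protein used to select the cells, was at 480.3, 496, 551 and 447 CPM with H16R and 761, 556, 591 and 649.6 CPM with 3x. It rose by 0.37 ± 0.09 (adjusted p = 0.0143), with each 3x library above each H16R library, and missed the threshold without 3x replicate 1 (adjusted p = 0.107). PBS mice were at 364 ± 16.0 CPM and WT IL-2 mice at 431 ± 22.2 CPM. Il2rb, the signaling chain IL-2Rβ, was at 1106, 1003, 1022 and 1031 CPM with H16R and 1446, 1080, 1139 and 1234 CPM with 3x. It rose by 0.24 ± 0.06 (adjusted p = 0.0205), with 1 pair of libraries overlapping, and the adjusted p was 0.159 without 3x replicate 1.

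Jak3, the kinase on the common γ chain, was at 487, 517, 534 and 525 CPM with H16R and 375, 368, 395 and 363 CPM with 3x, and fell by 0.46 ± 0.05 (adjusted p = 6.03e-06). The 4 libraries of 3x lay below all those of H16R and near those of PBS, whose mean was 382 ± 22.5 CPM, while WT IL-2 mice were at 496 ± 32.3 CPM. Stat5b was lower by a small amount (−0.11 ± 0.04, adjusted p = 0.0963), a call lost when any 1 of 5 of the 8 libraries was left out, with the largest adjusted p, 0.31, without 3x replicate 1. Il2rg (−0.06 ± 0.05, 95% interval −0.16 to 0.03), Jak1 (−0.10 ± 0.05; −0.19 to 0.00) and Stat5a (−0.07 ± 0.05; −0.18 to 0.04) did not pass the test, although Jak1 did when only the 8 libraries were fitted (adjusted p = 0.0948).

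STAT5 targets and feedback genes that were called were higher with 3x, with 1 exception, Il10. Of 18 tested, 10 were higher, 1 was lower and the median was 0.26, with 5 higher without 3x replicate 1, 6 without 3x replicate 4 and 2 lower when only the 8 libraries were fitted. Cish encodes the SOCS family inhibitor that STAT5 induces through paired TTCNNNGAA elements. Its start region is shown because both elements, in capitals, lie there, in RefSeq sequence of GRCm38.p6 at chr9:107296614-107296688 on the plus strand, with the first base of the left element being the first base of the RefSeq transcript.
Cish: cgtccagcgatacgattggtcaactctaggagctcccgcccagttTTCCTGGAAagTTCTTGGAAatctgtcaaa
TTCNNNGAA, which reads the same on both strands, was found in the windows of 5 of 13 listed STAT5 targets with a window (38.5%) and in 8.25% of the tested genes; of the 6 called targets with a window, Cish alone held it.

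Cish was at 222, 234, 225 and 216 CPM with H16R and 282, 247, 268 and 285 CPM with 3x, and rose by 0.27 ± 0.06 (adjusted p = 0.00577). The groups did not overlap, while the PBS mean was 233 ± 6.07 CPM. Bcl2, which blocks mitochondrial cell death, was at 113, 112, 112 and 129.8 CPM with H16R and 178, 166, 155 and 158 CPM with 3x, a rise of 0.50 ± 0.09 (adjusted p = 0.00157). Both mutein groups were below PBS mice, which were at 215 ± 10.8 CPM, and H16R was near WT IL-2 at 125 ± 6.53 CPM. Bcl2l1, which encodes the related protein Bcl-xL, was at 43.8, 50.5, 43.6 and 39.3 CPM with H16R and 58.1, 59.0, 59.0 and 55.2 CPM with 3x, a rise of 0.38 ± 0.06 (adjusted p = 5.35e-04). Of the 18 tested members of the Bcl2 family, these were the 2 that were higher, and 1 was lower. The number lower was 0 when any library but H16R replicate 3 or 3x replicate 2 was left out, 3 without H16R replicate 3, 2 without 3x replicate 2, 4 by DESeq2 and 3 when only the 8 libraries were fitted.

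**Figure D3:**
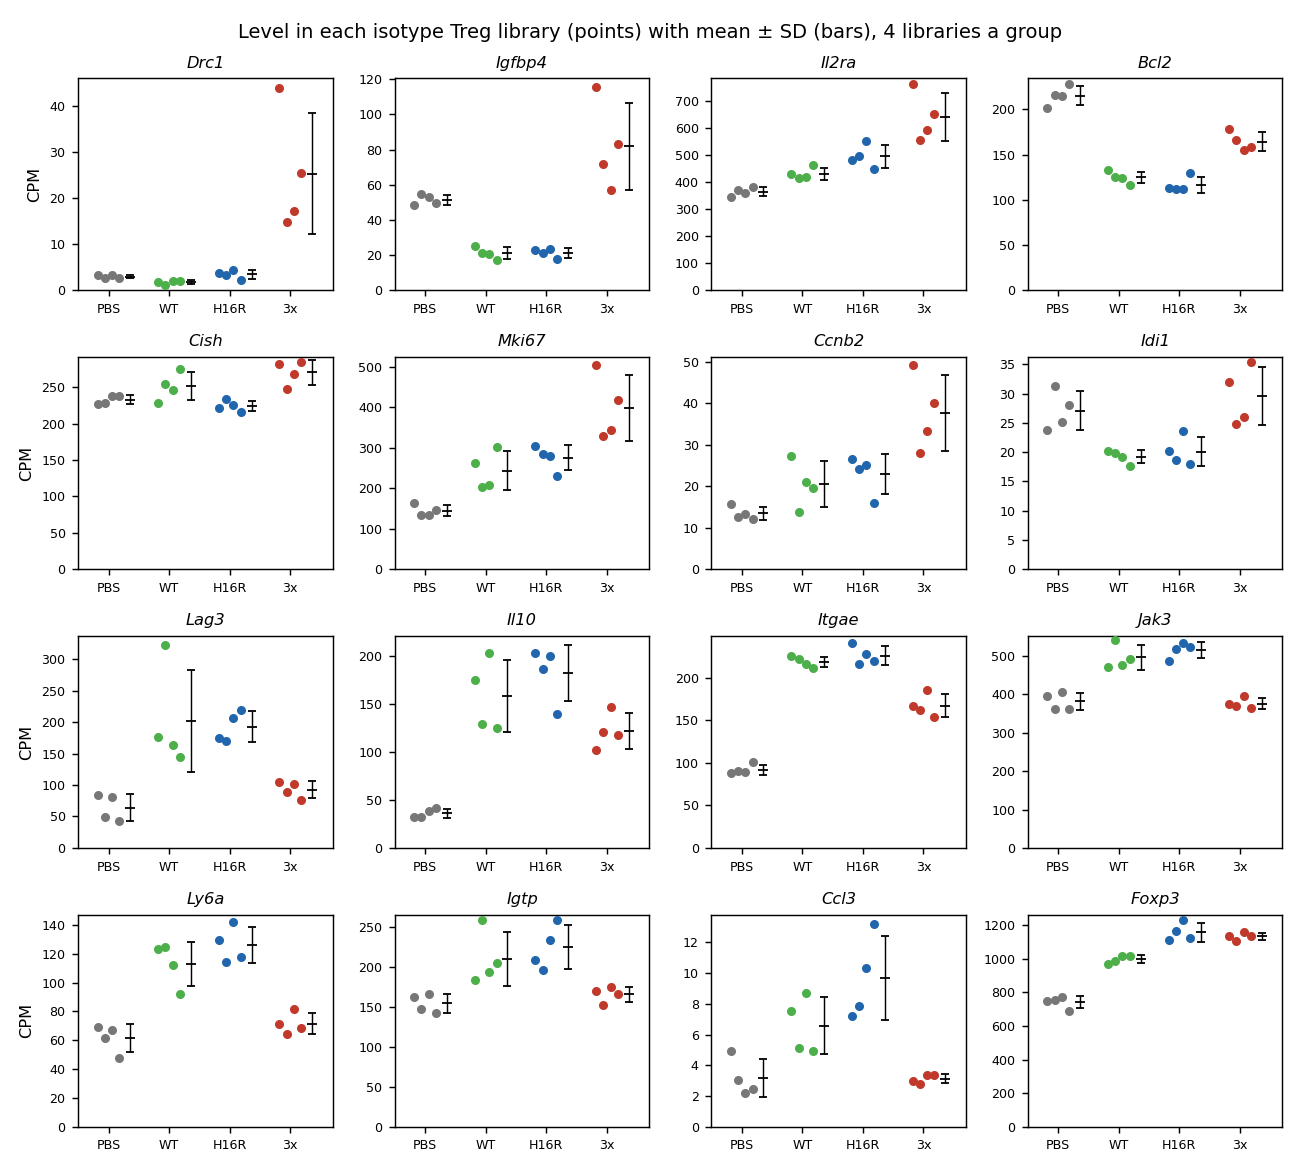
CPM of 16 named genes (vertical axes, from 0) in the isotype Treg libraries of PBS, WT IL-2, H16R and 3x mice, 4 libraries each, where points are libraries and bars the mean ± SD. For Bcl2, Jak3, Lag3, Itgae, Ly6a and Ccl3, the 4 libraries of 3x lie on one side of the 4 of H16R, while for Foxp3 they lie among them.

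Of 23 tested genes of sterol synthesis and uptake, 14 were higher with 3x, 9 were not called, none was lower, and the median was 0.31. The summed level was 1001, 991, 1114 and 976 CPM with H16R and 1197, 1108, 1110.1 and 1250.2 CPM with 3x. H16R replicate 3, the library that stood apart, overlapped the 3x group. With any 1 of the 8 libraries left out, 12 to 15 genes were called. Idi1, an isomerase of the mevalonate pathway, was at 20.1, 18.7, 23.7 and 17.9 CPM with H16R and 32.1, 24.8, 26.1 and 35.3 CPM with 3x (0.56 ± 0.12, adjusted p = 0.00681). Mvd, the preceding enzyme, rose by 0.54 ± 0.13 (adjusted p = 0.00966), Cyp51, which removes a methyl group from lanosterol, by 0.46 ± 0.09 (adjusted p = 0.00255), Sc5d, a late desaturase, by 0.37 ± 0.06 (adjusted p = 4.55e-04), and Insig1, the sterol sensor, by 0.32 ± 0.06 (adjusted p = 0.00364). Srebf2, the master regulator of the pathway (0.07 ± 0.06, 95% interval −0.05 to 0.19), did not pass the test.

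Hmgcs1, which starts the mevalonate pathway, was at 33.5, 35.4, 41.0 and 31.8 CPM with H16R and 45.9, 42.3, 40.5 and 47.4 CPM with 3x, with H16R replicate 3 among the 3x libraries. It rose by 0.31 ± 0.08 (adjusted p = 0.0213). A sterol element, TCACNCCAC, was found on either strand in the windows of 1 of 16 listed genes, Hmgcs1, and in 1.32% of the tested genes. The stretch around it is shown, with the element in capitals, at chr13:119690169-119690267 on the plus strand of GRCm38.p6 (RefSeq).
Hmgcs1: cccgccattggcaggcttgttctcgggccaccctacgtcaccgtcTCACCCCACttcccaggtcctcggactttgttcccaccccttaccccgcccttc
The other 15 windows do not hold these letters, which says nothing of binding elsewhere. Of 13 tested genes of fatty acid synthesis, 1 was higher and none lower, and the call was lost without 3x replicate 1.

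Ribosome biogenesis genes that were called were higher by small amounts, with 1 exception. Of 59 tested, 25 were higher and 1 was lower, with a median of 0.12. Leaving out 1 library gave 14 to 30 higher, with 14 without 3x replicate 1 or H16R replicate 4 and 15 without 3x replicate 2 or 4. Wdr43, a factor for the small subunit, was at 90.2, 95.3, 93.9 and 94.3 CPM with H16R and 108, 112, 102 and 99.9 CPM with 3x (0.18 ± 0.04, adjusted p = 0.00577). Npm1, nucleophosmin, was higher by 0.16 ± 0.05 (adjusted p = 0.0354; 0.118 without 3x replicate 1 and 0.154 without H16R replicate 4). The 1 gene that fell was Nol10, at 51.7, 54.3, 51.9 and 51.8 CPM with H16R and 38.4, 42.0, 42.3 and 41.6 CPM with 3x (−0.35 ± 0.05, adjusted p = 1.16e-04). Cytoplasmic ribosomal protein genes had 1 call among 73, Rpl5 (0.38 ± 0.08, adjusted p = 0.00538), and 9 of 74 were higher when only the 8 libraries were fitted. Of 76 tested subunits of oxidative phosphorylation none was called by edgeR or DESeq2, limma called 1, 1 was higher by edgeR with total-count scaling and 3 without H16R replicate 3, 4 were higher at an unadjusted p under 0.05, and the list's median was 0.04.

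**Figure D4:**
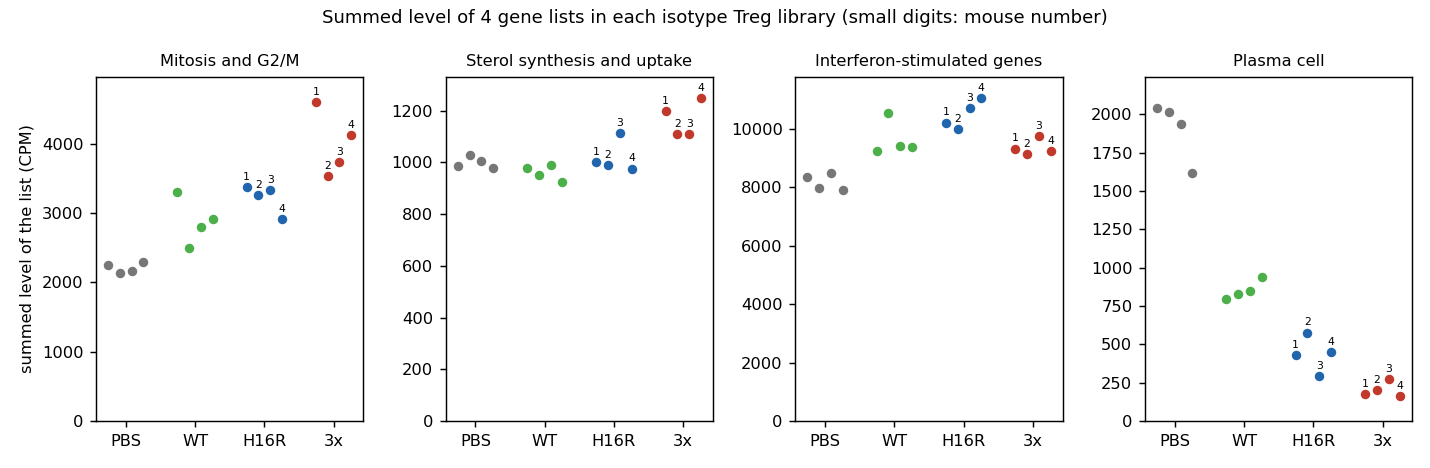
Summed CPM of the members of 4 gene lists (vertical axes, from 0) in each isotype Treg library, with small digits giving the mouse number of mutein libraries. For mitosis the 3x libraries lie above the H16R libraries, for sterol synthesis H16R mouse 3 overlaps the 3x group, and for interferon-stimulated and plasma cell genes the 3x libraries lie below.

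Of 23 tested suppressor molecules of Tregs, 8 were lower with 3x and none was higher (1 at an unadjusted p under 0.05, none by DESeq2 or limma), with a median of −0.10; without H16R replicate 4 or 3x replicate 4 the count was 5. When only the 8 libraries were fitted, 9 were lower and 2 higher. Lag3, an inhibitory receptor that binds MHC class II, was at 174, 169.6, 207 and 219 CPM with H16R and 105, 88.2, 101 and 76.0 CPM with 3x, and fell by 1.06 ± 0.20 (adjusted p = 0.00152). The groups did not overlap. PBS mice were at 64.1 ± 21.3 CPM and WT IL-2 mice at 202 ± 81.4 CPM. Il10, the suppressive cytokine, was at 203, 186, 199.5 and 139 CPM with H16R and 102, 120.1, 147 and 118 CPM with 3x, where H16R replicate 4 fell within the 3x range, and fell by 0.58 ± 0.14 (adjusted p = 0.0107). Both groups stayed above PBS mice, at 36.1 ± 4.8 CPM.

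Itgae, the αE integrin CD103 that holds T cells at epithelia, was at 241, 216, 228 and 219.8 CPM with H16R and 167, 163, 186 and 154 CPM with 3x, and fell by 0.44 ± 0.08 (adjusted p = 0.00156). Tigit, an inhibitory receptor, was at 302, 273, 272 and 285 CPM with H16R and 213, 201, 243 and 186 CPM with 3x (−0.43 ± 0.10, adjusted p = 0.00817). Neither gene's groups overlapped. Lrrc32, which encodes GARP, the surface anchor of latent TGF-β, fell by 0.26 ± 0.06 (adjusted p = 0.0106). Pdcd1, PD-1, was lower (−0.37 ± 0.11, adjusted p = 0.0362), and missed the threshold without H16R replicate 4 (0.14) or 3x replicate 4 (0.13). Ctla4 (−0.10 ± 0.10, 95% interval −0.30 to 0.09), Entpd1, which encodes CD39 (−0.07 ± 0.07; −0.22 to 0.07), and the cytotoxic protease Gzmb (0.40 ± 0.22; −0.05 to 0.85) did not pass the test. Nt5e, CD73, did not pass it either (−0.25 ± 0.09; −0.44 to −0.05; adjusted p = 0.115, but 0.081 by DESeq2, 0.0608 without H16R replicate 3, and 0.0303 when only the 8 libraries were fitted).

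The main identity genes of Tregs did not pass the test. Foxp3 had a log2 fold change of −0.03 ± 0.06 with a 95% interval of −0.14 to 0.08, and Ikzf2, which encodes Helios, of −0.02 ± 0.10 (−0.23 to 0.19). Of the 18 tested identity genes, 1 was higher, Il2ra, and 3 were lower, with 3 higher and 4 lower when only the 8 libraries were fitted. Nrp1, a coreceptor carried by thymus-derived Tregs, was at 277, 269, 266 and 291 CPM with H16R and 193, 214, 227 and 207 CPM with 3x (−0.39 ± 0.07, adjusted p = 8.79e-04). Izumo1r, the folate receptor FR4, fell by 0.29 ± 0.06 (adjusted p = 0.00504), and Lrrc32 was the other. Of 41 genes of effector and tissue Tregs, 2 were higher and 8 lower, beside 5.76% and 5.77% of all tested genes. The number lower was 4 without H16R replicate 1 and 5 without 3x replicate 4. The number higher was 1 without any 1 of H16R replicates 1, 2 and 4 and 3x replicates 1, 3 and 4. When only the 8 libraries were fitted, 5 were higher and 13 lower, beside 1079 and 1179 of all 11601 genes in that fit. Batf, a factor that effector Tregs need, fell by 0.30 ± 0.08 (adjusted p = 0.0223), and Prdm1, which encodes Blimp-1, was lower (−0.28 ± 0.09, adjusted p = 0.0417; 0.111 without H16R replicate 1, 0.101 without 3x replicate 2 and 0.159 without 3x replicate 4). Vim, vimentin, rose by 0.44 ± 0.10 (adjusted p = 0.0105). Icos (−0.13 ± 0.11; −0.35 to 0.10), Klrg1 (0.18 ± 0.17; −0.17 to 0.53), Il1rl1, the IL-33 receptor (0.19 ± 0.11; −0.04 to 0.42), and Gata3 (−0.05 ± 0.07; −0.20 to 0.10) did not pass the test, although Il1rl1 did when only the 8 libraries were fitted (adjusted p = 0.0995).

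Interferon-stimulated genes were lower with 3x where called. Of 65 tested, 18 were lower and none was higher, the median was −0.17, and 3 members had a log2 fold change above 0. Without H16R replicate 4, which had the highest summed level of the list, 10 were lower, and 31 were when only the 8 libraries were fitted. The sums were 10225, 10013, 10729 and 11064 CPM with H16R and 9336, 9156, 9764 and 9258 CPM with 3x, so that the groups did not overlap. PBS mice were at 7927 to 8509 CPM and WT IL-2 mice at 9267 to 10561 CPM. Interferon-stimulated response elements have the form GAAA, any 2 bases, GAAA, and bind STAT and IRF factors. The start regions of Igtp, a GTPase against intracellular pathogens, and Oas1a, a sensor enzyme for viral RNA, are shown because both genes fell and hold the element, in capitals. They are RefSeq sequences of GRCm38.p6, Igtp at chr11:58199477-58199576 on the plus strand and Oas1a at chr5:120907496-120907590 on the minus strand, where 2 overlapping elements are printed as 1 run.
Igtp: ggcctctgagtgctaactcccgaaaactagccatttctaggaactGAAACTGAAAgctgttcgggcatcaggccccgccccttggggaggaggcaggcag
Oas1a: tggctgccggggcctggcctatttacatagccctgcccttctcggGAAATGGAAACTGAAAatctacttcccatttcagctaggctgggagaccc
On either strand, this form was found in 27 of 48 listed genes with a window (56.2%), in 6 of the 12 called ones, and in 3.99% of the tested genes.

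Igtp was at 209, 196, 233 and 258 CPM with H16R and 169.7, 152, 174 and 165 CPM with 3x, and fell by 0.44 ± 0.09 (adjusted p = 0.00423). Oas1a was at 65.1, 63.4, 66.4 and 62.5 CPM with H16R and 46.4, 48.6, 52.8 and 43.7 CPM with 3x (−0.43 ± 0.09, adjusted p = 0.00549). For both genes all 3x libraries were below all H16R libraries. Ly6a, Sca-1, was at 129.8, 115, 142 and 118 CPM with H16R and 71.6, 64.3, 81.8 and 68.8 CPM with 3x (−0.82 ± 0.13, adjusted p = 3.39e-04), next to 61.3 ± 9.73 CPM with PBS and 113 ± 15.1 CPM with WT IL-2. Tap1, the peptide transporter, fell by 0.22 ± 0.04 (adjusted p = 0.0024), and the GTPase Iigp1 fell by 0.84 ± 0.15 (adjusted p = 9.42e-04). Mx1, an antiviral GTPase, was lower (−0.62 ± 0.17, adjusted p = 0.0216), a call lost without H16R replicate 4 (0.11) or 3x replicate 4 (0.105). Ifit1 (−0.01 ± 0.15, 95% interval −0.32 to 0.30) and Isg15 (−0.23 ± 0.10; −0.44 to −0.02) did not pass the test, although Isg15 did when only the 8 libraries were fitted (adjusted p = 0.0392).

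T cell receptor signaling genes that were called were mostly lower. Of 41 genes of the receptor complex and its proximal signaling, 9 were lower and 2 higher, with 3 lower without 3x replicate 1, 4 without 3x replicate 4, and 14 lower and 4 higher when only the 8 libraries were fitted. The kinase Zap70 was at 287, 284, 293 and 307 CPM with H16R and 245, 254, 262 and 232 CPM with 3x (−0.24 ± 0.06, adjusted p = 0.0105), and the coreceptor Cd4 fell by 0.20 ± 0.05 (adjusted p = 0.0195). Rasgrp1, which couples the receptor to Ras, rose by 0.27 ± 0.07 (adjusted p = 0.0263). Of 26 genes that respond to receptor engagement, 4 were lower and none higher, with 2 lower without H16R replicate 4 or 3x replicate 1 and 7 without 3x replicate 2, and with 7 lower and 1 higher when only the 8 libraries were fitted. Egr2, an anergy-linked factor, was at 29.2, 25.9, 22.7 and 28.3 CPM with H16R and 20.0, 21.8, 20.7 and 20.4 CPM with 3x (−0.36 ± 0.10, adjusted p = 0.0198), and Fos was lower (−0.32 ± 0.08, adjusted p = 0.017; 0.101 without 3x replicate 1). Nr4a1 (−0.08 ± 0.11, 95% interval −0.30 to 0.14) and Cd69 (0.06 ± 0.08; −0.09 to 0.22) did not pass the test.

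Of 24 tested genes of naive and recirculating T cells, 5 were higher and 2 lower, beside 5.76% and 5.77% of all tested genes. The number higher was 2 or 3 without each of H16R replicates 1, 2 and 4 and 3x replicates 1 and 4. Igfbp4 was the second largest rise of all named genes and Nsg2 rose by 0.62 ± 0.09 (adjusted p = 1.94e-04). Tcf7, which encodes TCF-1 (−0.14 ± 0.09, 95% interval −0.31 to 0.03), did not pass the test. Cxcr5, which guides cells to follicles, was at 48.1, 43.3, 42.6 and 47.1 CPM with H16R and 25.7, 32.4, 29.8 and 30.2 CPM with 3x (−0.62 ± 0.09, adjusted p = 1.99e-04). Smad7, the inhibitor of TGF-β signaling, rose by 0.37 ± 0.07 (adjusted p = 0.00259), Pik3r5, a regulatory subunit of PI3Kγ, rose by 0.38 ± 0.05 (adjusted p = 6.89e-05), and Slc16a3, a lactate exporter, fell by 0.53 ± 0.14 (adjusted p = 0.0192).

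The remaining lists are given beside the 11.5% of all tested genes that were called. The share called was 50% of GIMAP GTPases, 26.3% of chemokine receptors, 25% of TNF receptors, 24% of cytokine receptors and 20% of NF-κB pathway genes, and it was 8.33% of proteasome genes. NF-κB pathway genes had 4 of 20 lower, with 1 without H16R replicate 4 and 2 without 3x replicate 1 or 4, and GIMAP GTPases, which regulate lymphocyte survival, had 4 of 8 lower, with none without H16R replicate 4 or 3x replicate 1 or 4. Cytokine receptors had 1 of 25 higher and 5 lower, chemokine receptors 2 of 19 higher and 3 lower, TNF receptors 1 of 16 higher and 3 lower, and integrins 3 of 24 lower. The receptor counts rest on single mice. Without 3x replicate 1, no cytokine receptor was lower, chemokine receptors had none higher and 1 lower, and TNF receptors had 1 in each direction. Cytokine receptors had 1 lower without 3x replicate 3 and 2 or 3 lower without any of H16R replicates 1, 3 and 4 and 3x replicates 2 and 4. Chemokine receptors had none higher and 2 lower without H16R replicate 2 or 3x replicate 4, and no TNF receptor was higher without any 1 of the libraries other than 3x replicate 1. In metabolism and stress, 4 of 31 glycolysis genes were higher and 2 lower, 2 of 36 proteasome genes higher and 1 lower, 2 of 31 ATF4 targets higher and 4 lower, and 1 of 28 chaperones higher and 3 lower. PI3K, mTOR and Foxo genes had 3 of 25 higher and 1 lower, and TGF-β response genes 2 of 20 in each direction. Fitting only the 8 libraries called 1079 of 11601 genes higher and 1179 lower. In that fit 14 of 28 chaperones, 7 of 24 integrins, 6 of 19 chemokine receptors, 4 of 20 TGF-β response genes, 4 of 31 glycolysis genes and 2 of 36 proteasome genes were lower, and 4 of 26 cytokine receptors, 1 NF-κB gene and 1 integrin gene were higher. Leaving out any 1 of the 8 libraries moved at least 1 of these counts by over 1.5 times.

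The largest rise of the named genes was in Drc1 (chr5:30281388-30366695, GRCm38), which encodes a component of the axoneme of cilia. It was at 3.83, 3.35, 4.4 and 2.21 CPM with H16R and 43.8, 14.7, 17.1 and 25.5 CPM with 3x, and rose by 2.87 ± 0.27 (adjusted p = 9.62e-08). Each 3x library was above each H16R library, PBS mice were at 2.98 ± 0.377 CPM and WT IL-2 mice at 1.75 ± 0.416 CPM. Igfbp4 (chr11:99041244-99054392), which encodes a binding protein of insulin-like growth factors, was at 23.0, 21.0, 23.5 and 17.6 CPM with H16R and 116, 71.7, 56.8 and 83.0 CPM with 3x (1.94 ± 0.15, adjusted p = 3.44e-09). PBS mice lay between the muteins, at 51.4 ± 2.86 CPM, and WT IL-2 mice, at 21.1 ± 3.37 CPM, were near H16R. The gene 1500009L16Rik rose by 1.08 ± 0.23 (adjusted p = 0.00477), Amotl1, a junction and Hippo pathway protein, by 0.94 ± 0.15 (adjusted p = 4.55e-04), Nckap5 by 0.87 ± 0.19 (adjusted p = 0.00556), Dnah7a, an axonemal dynein, by 0.84 ± 0.14 (adjusted p = 7.44e-04), and Myo6, an unconventional myosin, by 0.83 ± 0.16 (adjusted p = 0.00217).

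Among the largest falls was that of Hdc, the enzyme that makes histamine, which was at 10.4, 17.1, 31.1 and 13.8 CPM with H16R and 4.95, 3.8, 1.78 and 5.98 CPM with 3x (−2.13 ± 0.39, adjusted p = 0.0015), and was highest in H16R replicate 3. Of 7 basophil and mast cell markers, chosen after the fall of Hdc was seen, 4 were tested, none was called by edgeR or limma, 1 was lower by DESeq2 and at an unadjusted p under 0.05, and their summed level was 2.29 to 3.93 CPM with H16R and 1.79 to 2.06 CPM with 3x. The part of such cells in the fall of Hdc was not tested. Mcpt1, a mast cell protease, was at 2.37, 2.45, 7.88 and 2.88 CPM with H16R and 0.687, 0.346, 0.164 and 0.516 CPM with 3x (−3.18 ± 0.44, adjusted p = 7.61e-05). Vdr, the vitamin D receptor, was at 10.9, 11.0, 15.0 and 23.0 CPM with H16R and 5.7, 4.87, 2.71 and 5.85 CPM with 3x (−1.65 ± 0.31, adjusted p = 0.00166). Ccl3, a chemokine of activated cells, was at 7.19, 7.87, 10.3 and 13.2 CPM with H16R and 2.96, 2.79, 3.34 and 3.4 CPM with 3x (−1.63 ± 0.26, adjusted p = 3.39e-04), and its neighbor Ccl4 fell by 0.97 ± 0.24 (adjusted p = 0.0129). For Hdc, Vdr, Ccl3 and Ccl4 all 3x libraries were below all H16R libraries. The other named falls were in Ly6c2 (log2 fold change −1.25 ± 0.29), the galectin Lgals7 (−1.07 ± 0.20), the interferon-inducible GTPase gene Gm4841 (−1.06 ± 0.14), the collagen Col27a1 (−0.97 ± 0.18) and Dsp, desmoplakin (−0.92 ± 0.21), with adjusted p from 3.27e-05 (Gm4841) to 0.00868 (Ly6c2).

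Hspa1a and Hspa1b, heat shock genes that are near-identical copies whose reads the counting could split, were lower (Hspa1a −1.83 ± 0.60, adjusted p = 0.0596, and Hspa1b −1.52 ± 0.50, adjusted p = 0.0594) and are uncertain. Both calls were lost without H16R replicate 1 or 3 and without 3x replicate 1 or 2, and that of Hspa1a also without 3x replicate 4; over the left-out libraries the largest adjusted p was 0.2 for Hspa1a and 0.207 for Hspa1b.

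Plasma cell transcripts were lower with 3x in the selected cells. Of 6 plasma cell markers, 5 were lower, 4 without H16R replicate 2 or 3x replicate 1, and their summed level was 427, 576, 292 and 449 CPM with H16R and 174, 203, 274 and 163 CPM with 3x. The groups did not overlap, and PBS mice, at 1619 to 2041 CPM, had more than either. Jchain, the joining chain of secreted antibodies, was at 287, 402, 174 and 310.2 CPM with H16R and 80.2, 119, 166 and 75.6 CPM with 3x (−1.41 ± 0.32, adjusted p = 0.00678). Also lower were Mzb1, a chaperone for antibody assembly (−1.97 ± 0.35, adjusted p = 0.00132), Tnfrsf17, which encodes BCMA (−1.93 ± 0.46, adjusted p = 0.0105, and 0.104 with limma), and Derl3 (−1.52 ± 0.36, adjusted p = 0.0105). Sdc1, CD138, was lower (−1.02 ± 0.29, adjusted p = 0.0305; 0.114 without H16R replicate 2 and 0.132 without 3x replicate 1), and Txndc5 was at −0.40 (−0.82 to 0.02) and was lower when only the 8 libraries were fitted (adjusted p = 0.0154). In a fit with all biotypes, where 9.04% of 14982 genes were called, 6 of 8 immunoglobulin constant genes were lower, among them Ighm at −1.13 ± 0.26 (adjusted p = 0.0102) and Igkc at −1.68 ± 0.36 (adjusted p = 0.00695).

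Markers of other cells were read in the same way. Summed levels of 12 B cell markers were 41.5 to 54.4 CPM with H16R and 37.8 to 51.9 CPM with 3x, and none of the 11 tested was called by edgeR or limma, while 1 was lower by DESeq2 and at an unadjusted p under 0.05 and 2 of 10 were lower by edgeR when only the 8 libraries were fitted. Myeloid markers summed to 17.2 to 20.6 CPM with H16R and 24.2 to 29.6 CPM with 3x without overlap, with no call among 12 by edgeR, DESeq2 or limma and none at an unadjusted p under 0.05, but 2 of 6 higher when only the 8 libraries were fitted. Erythroid markers summed to 2.75 to 3.89 and 0.987 to 1.48 CPM, again without overlap, with no call among 6 by edgeR or limma and 2 lower by DESeq2 and at an unadjusted p under 0.05, and the 1 marker tested when only the 8 libraries were fitted was lower. NK cell markers, at 131 to 153 and 127 to 139 CPM, had 2 of 11 higher, and dendritic cell markers, at 232 to 329 and 204 to 263 CPM, had 1 of 12 higher and 1 lower. No NK marker was called without H16R replicate 4 and 1 without 3x replicate 1 or 4, and no dendritic cell marker was called without H16R replicate 1 or 4 or 3x replicate 1. When only the 8 libraries were fitted, 1 of 10 NK markers and 4 of 10 dendritic cell markers were lower. Markers of CD8 T cells (8.78 to 12.5 and 9.61 to 11.3 CPM), γδ T cells (13.1 to 22.1 and 19.5 to 26.5 CPM) and platelets (4.36 to 5.17 and 4.16 to 5.11 CPM) had no calls among the genes in the main test by any of the 3 tools and none at an unadjusted p under 0.05. Trdc, the constant gene of the δ chain, was outside that test and was at 6.94 to 8.39 CPM with H16R and 10.3 to 12.7 CPM with 3x, higher by 0.56 ± 0.17 (adjusted p = 0.0455) in the fit with all biotypes. The part of any of these cells in the changes of cell cycle, interferon or suppressor genes was not tested.

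The same contrast was read in 8 other mice that received the MHC class II blocking antibody, which the paper used to reduce the T cell receptor signal. There 3127 genes (25.2%) were called, 1572 (12.7%) higher and 1555 (12.5%) lower with 3x (1884 and 1195 when scaled by total counts alone), and 1975 without MHC II block 3x replicate 4. Of the 714 genes higher in the isotype arm, 415 were also higher here, which is 58.1% of the isotype list and 26.4% of the other, and 17 were lower. Of the 715 genes lower, 324 were also lower (45.3% and 20.8%), and 22 were higher. Mitosis genes were higher in both arms, with 63 of 66 higher and 1 lower in the MHC II block arm and a median of 0.60. The sterol list had 10 of 23 higher there, the interferon list 15 of 65 lower and 3 higher, ribosome biogenesis 5 of 59 higher and 2 lower, and the suppressor list 6 of 23 higher and 3 lower. Of the markers of other cells, 1 of 11 NK cell and 2 of 2 platelet markers were lower there, and none of the 6 plasma cell markers was called.

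The test of the difference between arms called 285 genes (2.30%), 128 (1.03%) with a contrast higher in the isotype arm and 157 (1.27%) lower (96 and 184 when scaled by total counts alone), and 99 of the 1429 isotype DEGs were among them. This count rests on single mice in both arms, from 98 without MHC II block 3x replicate 4 to 692 without MHC II block 3x replicate 2. Jak3 was one, with log2 fold changes of −0.46 ± 0.05 in the isotype arm and −0.09 ± 0.05 in the MHC II block arm (difference −0.37 ± 0.08, adjusted p = 0.0155). In the MHC II block arm it was at 547, 557, 536 and 608 CPM with H16R and 543, 519, 551 and 504 CPM with 3x. Pdcd1 was lower with 3x in the isotype arm and higher in the MHC II block arm (0.45 ± 0.11, adjusted p = 0.00426; difference −0.81 ± 0.15, adjusted p = 0.00653). Insig1, the sterol sensor, rose in the isotype arm and was at −0.15 ± 0.07 in the other (difference 0.47 ± 0.09, adjusted p = 0.0101).

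Of the 41 effector and tissue Treg genes, 7 had a contrast lower in the isotype arm by this test and none a higher one. Itgb1, the β1 integrin, was at 521, 492, 484 and 562 CPM with H16R and 418, 397, 429 and 423 CPM with 3x in the isotype arm, and at 572, 508, 592 and 569 CPM and 705, 603, 683 and 819.8 CPM in the MHC II block arm. It was lower with 3x in the former (−0.30 ± 0.08, adjusted p = 0.0224) and higher in the latter (0.33 ± 0.08, adjusted p = 0.00607), and the difference was −0.63 ± 0.12 (adjusted p = 0.00561). Prdm1 was also lower in the isotype arm, with 0.24 ± 0.08 (adjusted p = 0.043) in the MHC II block arm and a difference of −0.52 ± 0.12 (adjusted p = 0.0282). Batf had 0.18 ± 0.08 there (difference −0.48 ± 0.12, adjusted p = 0.0371; 0.107 and 0.11 without MHC II block 3x replicate 1 or 4). Ccr4, a skin-homing receptor, and Pparg, the factor of fat tissue Tregs, did not pass the test in the isotype arm (−0.09 ± 0.10 and 0.06 ± 0.25) and were higher in the MHC II block arm (0.50 ± 0.10 and 1.35 ± 0.25), with differences of −0.59 ± 0.14 (adjusted p = 0.0282) and −1.29 ± 0.35 (adjusted p = 0.0716). The Pparg call was lost when any 1 of 10 of the 16 libraries was left out, with an adjusted p of up to 0.212 without MHC II block 3x replicate 4. Maf and Epas1 were the other genes.

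By the naming rule for this test, the contrasts most shifted upward in the isotype arm were those of Xcl1, Ccr7, Rgcc, Zfyve28 and Igfbp4, and the most shifted downward were those of Cd109, Mcpt1, Vdr, Il21 and Il13. Ccr7, which guides T cells into lymph nodes, was at 269, 250, 219 and 269.8 CPM with H16R and 316, 324, 304 and 380.1 CPM with 3x in the isotype arm and at 170, 183, 142 and 158 CPM and 92.2, 141, 122 and 92.9 CPM in the MHC II block arm. It was called in opposite directions in the 2 arms (0.39 ± 0.13, adjusted p = 0.0539, and −0.54 ± 0.13, adjusted p = 0.0036; difference 0.94 ± 0.18, adjusted p = 0.00761), and the isotype call was lost without H16R replicate 2 (0.105) or 3 (0.146) or 3x replicate 1 (0.105) or 4 (0.199). Zfyve28 had 0.34 ± 0.09 and −0.57 ± 0.09 in the 2 arms (difference 0.91 ± 0.12, adjusted p = 3.23e-04). Rgcc, a cell cycle regulator, had 0.38 ± 0.11 and −0.55 ± 0.12 (difference 0.93 ± 0.17, adjusted p = 0.00494), with its isotype call lost without H16R replicate 3 (0.117) or 3x replicate 4 (0.137). Vdr had −1.65 ± 0.31 in the isotype arm and 0.63 ± 0.28 in the MHC II block arm, where it was at 26.0, 25.4, 23.0 and 27.9 CPM with H16R and 35.7, 32.3, 39.0 and 52.0 CPM with 3x (difference −2.28 ± 0.42, adjusted p = 0.0052).

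Igfbp4 rose in both arms, by less with MHC II block (1.09 ± 0.15; difference 0.85 ± 0.21, adjusted p = 0.0437; 0.103 without MHC II block H16R replicate 1 and 0.105 without MHC II block 3x replicate 1). Il13, a type 2 cytokine, did not pass the test in the isotype arm (−0.59 ± 0.25), although it was lower without H16R replicate 1 (adjusted p = 0.0985). In the MHC II block arm Il13 was higher (1.44 ± 0.24; difference −2.03 ± 0.34, adjusted p = 0.00318). For Cd109 (difference −2.96 ± 0.73, adjusted p = 0.0418) and Il21 (difference −2.25 ± 0.56, adjusted p = 0.0418) the call rests on H16R replicate 4, where Cd109 was at 15.4 CPM and Il21 at 11.3 CPM, and without it the adjusted p was 0.145 and 0.13; for Il21 it was 0.113 without MHC II block 3x replicate 4. The isotype call of Il21 itself (adjusted p = 0.0907) was lost without H16R replicate 4 (0.514), without any 1 of the 3x libraries (0.106 to 0.214) and with limma (0.204). Mcpt1 had a difference between arms of −2.43 ± 0.57 (adjusted p = 0.0316) and Xcl1, a chemokine, of 1.04 ± 0.28 (adjusted p = 0.063), a call lost without 1 of 8 of the 16 libraries.

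**Figure D5:**
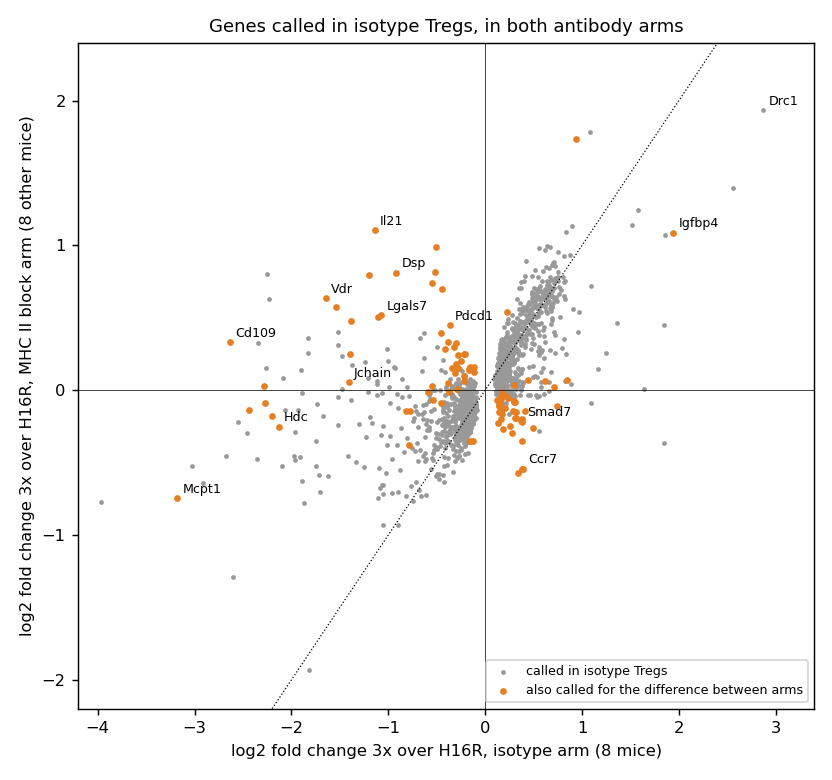
Log2 fold change of 3x over H16R in the isotype arm (horizontal axis) and in the MHC II block arm (vertical axis) for the 1429 isotype DEGs; the dotted line marks equal values. Orange points are the 99 genes also called for the difference between arms, among which Vdr, Il21 and Pdcd1 lie left of 0 and above it, and Ccr7 right of 0 and below it.

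In Tcons of 2 mice per group, taken from the same mice as 2 of the Treg libraries, 2504 of 12526 genes (20.0%) were called, 1102 (8.80%) higher and 1402 (11.2%) lower with 3x (808 and 1620 when scaled by total counts alone). The cell cycle genes had the opposite sign there: of the 66 mitosis genes, 62 were lower and none higher, with a median of −1.07. Mki67 was lower (−1.21 ± 0.24, adjusted p = 0.0153) in Tcons. Markers of other cells moved in the same contrast. The 6 plasma cell markers were lower, with sums of 2048 to 2304 CPM with H16R and 456 to 582 CPM with 3x, as were the 6 erythroid markers, with 93.5 to 106 CPM and 10.1 to 14.6 CPM. Of 11 B cell markers, 10 were higher, with 199.9 to 268 CPM with H16R and 451 to 598 CPM with 3x. Among the other marker lists, 3 of 4 basophil and mast cell, 1 of 11 NK cell, 1 of 2 platelet and 2 of 12 dendritic cell markers were lower, and 5 of 12 dendritic cell, 2 of 12 myeloid and 1 of 3 γδ T cell markers were higher. The part of these cells in the lower level of cell cycle genes in Tcons was not tested. Of the 708 Treg genes higher with 3x that were tested in Tcons, 63 were higher and 210 lower, and of the 701 lower ones, 119 were lower and 48 higher. The Tcon count depends on single mice, being 226 without 3x replicate 2, 269 without H16R replicate 1, 1026 without H16R replicate 2 and 1284 without 3x replicate 1. The difference between Tregs and Tcons was not tested.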

How the data were processed

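RNA of splenic CD25+ Tregs and CD25- Tcons was read with a stranded mRNA kit in 48 libraries. The authors aligned reads with OSA in Omicsoft Array Suite to mouse build B38, quantified genes with the Omicsoft form of RSEM, and deposited expected counts and FPKM per gene (the same counts scaled by gene length and library total). The FPKM were used for 1 alternative alone. Files of the authors' DESeq2 1.30.1 comparisons, which hold fold changes, test statistics and adjusted p-values, were not used.

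Expected counts were rounded and tested with edgeR 4.0.16 (R 4.3.3) by its quasi-likelihood test on TMM-scaled libraries, 1 model for the Tregs (6 groups of isotype PBS, WT IL-2, H16R and 3x and MHC II block H16R and 3x) and 1 for the 16 Tcon libraries. Protein-coding genes with CPM above 0.5 in at least 4 fitted libraries entered, and 29 genes with an empty cell were left out. P-values were adjusted by Benjamini-Hochberg over all tested genes, with a threshold of 0.1 as in the study. Standard errors are those of the log2 fold change, and 95% intervals follow from them. Biotypes and positions came from GENCODE vM21 (GRCm38), which held 51519 of the 53345 gene names (96.577%). Promoter windows are RefSeq sequences.

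Named genes are the 15 largest rises and falls among DEGs with a mean above 5 CPM and no overlap between groups, the 5 largest differences between arms in each direction with a mean above 5 CPM, and members of the gene lists described. The comparison, the lists and the tests were chosen with earlier results of these data known, and the basophil and mast cell list after the fall of Hdc was seen. Libraries come from separate mice, except that 2 WT IL-2 libraries carry the same mouse label and that each Tcon library shares its mouse with a Treg library. Among Treg groups with values given here, no 2 libraries of a group agreed within counting noise (chi-square per gene of at least 3.87, and 29.8 for the WT IL-2 pair). The scripts were tested on simulated counts. Alternatives were DESeq2 1.42.0, limma 3.58.1 on log2(FPKM + 1), RLE or total-count scaling, other filters and thresholds, the 8 libraries alone with and without a replicate block, and leaving out each library.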

Additional observations from a re-analysis of the deposited data

Results flagged for a closer look

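In 10 of 232 groups of 4 libraries (116 genes, each in H16R and in 3x), 1 library lay far from the other 3, where chance gives about 1 in 20. In H16R replicate 4, Bcl2 was at 129.8 CPM (others 112, 112 and 113), Rrm2 at 35.0 CPM (45.8, 47.3 and 47.6), Cd109 at 15.4 CPM (2.4, 2.6 and 3.48) and Il21 at 11.3 CPM (3.34, 3.5 and 4.49). Nol10 was at 54.3 CPM in H16R replicate 2 (51.7, 51.8 and 51.9) and at 38.4 CPM in 3x replicate 1 (41.6, 42.0 and 42.3). Rpl5 was at 37.5 CPM in 3x replicate 1 (30.8, 31.7 and 31.8), Insig1 at 92.6 CPM in 3x replicate 4 (78.3, 78.5 and 79.9), Batf at 87.0 CPM in H16R replicate 1 (95.1, 95.5 and 96.5) and Mcpt1 at 7.88 CPM in H16R replicate 3 (2.37, 2.45 and 2.88).

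The contrast of 3x with H16R differed between the antibody arms for 285 genes by edgeR's interaction test. Values here are the isotype log2 fold change minus that under MHC II block. Of the genes described, those above 0 were Wdr43 (0.19), Npm1 (0.24), Cd69 (0.39), Insig1 (0.47), Nsg2 (0.55), Smad7 (0.59), Dnah7a (0.77), Igfbp4 (0.85), Zfyve28 (0.91), Rgcc (0.93), Ccr7 (0.94) and Xcl1 (1.04). Those below 0 were Jak3 (−0.37), Batf (−0.48), Prdm1 (−0.52), Ccr4 (−0.59), Itgb1 (−0.63), Ly6a (−0.67), Amotl1 (−0.80), Pdcd1 (−0.81), Pparg (−1.29), Jchain (−1.47), Lgals7 (−1.59), Dsp (−1.73), Hdc (−1.88), Il13 (−2.03), Il21 (−2.25), Vdr (−2.28), Mcpt1 (−2.43) and Cd109 (−2.96).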

How the results depend on the processing

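Main counts were 1429 DEGs in isotype Tregs, 3127 under MHC II block, 285 for the difference between arms and 2504 in Tcons. An adjusted p of 0.05 left 893, 2284, 129 and 1319. With the adjusted p kept at 0.1, also asking for a log2 fold change of at least 1 in size left 100, 71, 35 and 598. Fewer genes can pass either rule. DESeq2 called 490 differences between arms, and with no CPM filter 177 were called. Fitting only the 8 libraries gave 2258 DEGs (1321 shared with the main 1429), and the replicate block on those 8 gave 2028 (1238 shared). Deviations of same-numbered H16R and 3x libraries had correlations of −0.113 to 0.101, and 1 of the 4 H16R libraries correlated best with its own number, so the numbers were not taken as pairs. Without 1 library the counts ran from 591 to 1501 in isotype Tregs, 1975 to 3674 under MHC II block, 98 to 692 for the difference and 226 to 1284 in Tcons, where the lone library left in a group was assumed to vary like the others. Why these counts moved was not tested. Of the 92 described genes called in isotype Tregs, none changed direction under any alternative, DESeq2 lost none, limma lost 3, the fits of the 8 libraries lost none, and leaving out 1 library lost 1 to 14, the most without 3x replicate 1. Of the described genes not called there, 5 were called when only the 8 libraries were fitted and 4 with the replicate block. Genes with CPM above 0.5 in fewer than 4 of the fitted Treg libraries were not tested.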
